A study of Mus musculus with 6 samples.

Results

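The DST4 family of mouse immunoglobulin heavy-chain diversity (D) genes comprises the genes named Ighd3, and its use was examined in the rearranged heavy-chain genes of splenic B cells. A sequence was a member when the first D gene named in its call began with Ighd3, with alleles merged. By this rule 13258 of 228609 sequences were members, of which 7856 named Ighd3-2 first, 3280 Ighd3-3 and 2122 Ighd3-1. The sequences came from 6 VDJ-seq libraries, which read joins of V, D and J genes in genomic DNA, of spleen B cells from C57BL/6 mice aged 12 weeks, enriched on magnetic columns by removing other cells. The input series has 4 libraries, whose DNA amounts were 5 µg, 2.5 µg, 1 µg and 500 ng, and a further pair, for which the labels name no amount, carries the polymerase names Q5_vent and Q5_Q5. Each library was the only library of its group, and the labels do not say which libraries share animals or DNA. No treatment or mutant allele is named in the labels. DNA joins hold no expression values, so the cell type was not checked against marker genes.

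A heavy-chain variable region is assembled when a D gene is joined to a J gene and a V gene is then joined to the D. Bases can be trimmed from the D at both ends and untemplated (N) bases added before the ends are sealed. The D letters lie in the centre of the CDR3, the loop of the antibody that most often touches antigen. Because the joins vary in length, a D can be read in any of its 3 reading frames. A join is productive when V and J are in the same frame and no stop codon intervenes, and an out-of-frame join makes no heavy chain and is carried along by the productive join on the other chromosome.

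The letters below are those the files align to each allele, read at each position as the most common base, and are shown because they set the peptides of the reading frames and the searches by letters described later. Capitals mark letters that differ from Ighd3-2*02 or precede its first base.
Ighd3-2*02: agacagctcaggctac
Ighd3-2*01: agacagctcGggctac
Ighd3-1*01: GGCacagctcGggctac
Ighd3-3*01: GGgacagctAGggctGT
With positions counted from 1 at the 5′ end of Ighd3-2*02, Ighd3-2*01 differed by A10G, Ighd3-1*01 by A1G, G2C and A10G, and Ighd3-3*01 by A1G, C9A, A10G, A15G and C16T. For Ighd3-2*02, 709 sequences held all 16 bases unchanged. Ighd3-2*01 and Ighd3-1*01 each had 1 full-length sequence, and no sequence covered Ighd3-3*01 over its whole length. The letters of these 3 alleles therefore rest mainly on partial alignments. The least covered position had 1 sequence in Ighd3-2*01, 88 in Ighd3-1*01 and 36 in Ighd3-3*01. In the RefSeq annotation of GRCm38.p6, Ighd3-2 lies at chr12:113448214-113448229 and is the D segment second closest to the J genes, 18381 bases from Ighj1. Ighd3-1 lies at chr12:113525313-113525329, the farthest of the 10 annotated D segments from the J genes, with 43121 bases to its neighbour Ighd1-1. Ighd3-3 is not named in this annotation, so it has no position here. Values for Ighd3-3 below are those of sequences given this name by the gene caller, and whether these mice carry the gene was not tested.

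Among the members, Ighd3-2 was the gene with long D segments, and calls to the other genes rested on a few bases. The mean aligned length was 11.6 bases for Ighd3-2 (SD 3.05 over 7856 sequences), 5.79 for Ighd3-1 (SD 1.15 over 2122) and 5.52 for Ighd3-3 (SD 0.830 over 3280). At most 7 bases were aligned in 2015 of 2122 Ighd3-1 calls and 3207 of 3280 Ighd3-3 calls (97.8%), against 12.6% of Ighd3-2 calls. The same share was 17.3% for the DSP2 family (the Ighd2 genes), 13.6% for the DFL16 family (the Ighd1 genes) and 47.4% for DQ52 (Ighd4-1), the short D gene beside the J genes. Of the 6120 members with 10 or more aligned bases, 6091 (99.5%) were Ighd3-2, 26 were Ighd3-1 and 3 were Ighd3-3.

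**Figure D1:**
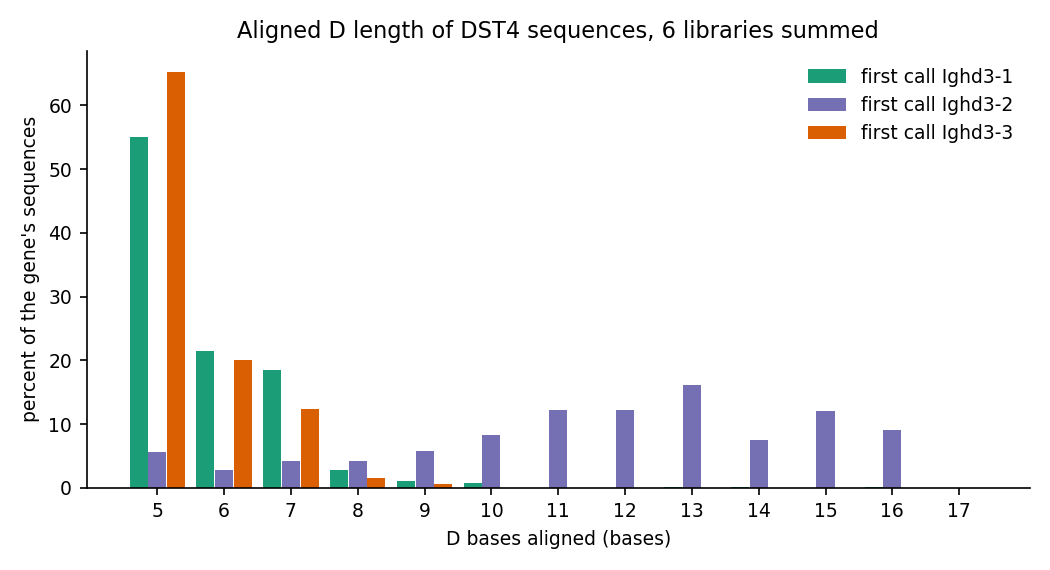
Percent of each gene's sequences (vertical axis) against the number of D bases aligned (horizontal axis, bases), with the 6 libraries summed. Bars for Ighd3-1 and Ighd3-3 stand almost wholly at 5 to 7 bases, and those for Ighd3-2 spread up to its full 16 bases.

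The pieces behind the short calls were shared with other D genes. The 5 letters gggac made up 1630 Ighd3-3 calls (49.7%), and tcggg made up 540 Ighd3-1 calls (25.4%). A call that named several genes was the rule for Ighd3-1 (94.9% of calls) and frequent for Ighd3-3 (61.3%), whereas 4.71% of Ighd3-2 calls named another gene. The most common tie joined Ighd3-3 with Ighd4-1, in 1922 members. The next joined Ighd3-1 with Ighd3-2, in 1426 members, and all 3 Ighd3 genes were tied in 417. Ighd3-1 was the only gene named in 109 members. Most Ighd3-1 calls thus did not tell this gene from Ighd3-2. The family label thus rests on long matches for Ighd3-2 and mostly on 5 to 7 letters for Ighd3-1 and Ighd3-3. Values are given below for all members and for Ighd3-2 on its own. A further 1186 sequences named an Ighd3 gene after another D gene and were not members.

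The family's share was similar in all libraries. Of the sequences with a D call, DST4 made up 5.74% in Q5_vent and 6.12% in Q5_Q5, and 5.99%, 6.48%, 6.13% and 6.17% in the input series in order of rising amount. The library totals behind these shares ran from 8704 to 112320 sequences, and Wilson 95% intervals were 5.50% to 6.53% at 500 ng and 6.03% to 6.32% at 5 µg. The difference between 5 µg and 500 ng was 0.176 percentage points (95% interval -0.357 to 0.710), and that between Q5_Q5 and Q5_vent was 0.383 points (-0.135 to 0.901). Both intervals included 0. Ighd3-2 alone made up 3.61% at 500 ng and 3.66% at 5 µg, and 3.40% in Q5_vent and 3.58% in Q5_Q5. All intervals here cover counting error only. A group held 1 library, so these differences have no replicates behind them.

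Within the members, 17 properties of the joins were set side by side in each of these pairs, and 1 interval excluded 0 in each. About 1 in 20 such intervals excludes 0 by chance alone, so 1 of 17 is near that rate. The Ighj1 share of DST4 joins was 7.37% at 5 µg and 10.8% at 500 ng (difference -3.40 points, -6.22 to -0.588). The share of DST4 sequences with a mismatch in V was 4.03% in Q5_Q5 and 8.02% in Q5_vent (difference -3.99 points, -6.09 to -1.90). Joins of other D genes were also lowest in Q5_Q5, with 600 of 13319 sequences, and lay at 7.68% to 9.34% in the other libraries.

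The comparisons that follow set DST4 joins against joins of all other D genes in the same library, which gives 6 differences, 1 per library. They were tested with an exact two-sided sign-flip permutation test, whose smallest possible p with 6 libraries is 0.03125. Adjusted by Benjamini-Hochberg over 20 comparisons this is 0.0391, the value of every difference below that is said to have passed, and each of these had the same direction in 6 of 6 libraries. Some clones recurred across libraries, so these p-values measure only the spread between these libraries, which may be technical.

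Ighd3-2 was almost never joined to Ighj1, the J gene closest to the D genes. Of 7856 Ighd3-2 sequences, 227 (2.89%) used Ighj1, against 19.7% of 202763 sequences with other D genes (difference -16.8 points, -17.2 to -16.4, passed). The Ighj1 share of Ighd3-2 was 1.75% in Q5_vent and 2.95% in Q5_Q5, and 6.42%, 2.94%, 2.84% and 2.81% in the input series in order of rising amount. For the other D genes it was at least 18.6% in each of the 6 libraries, so the groups did not overlap. The 500 ng library stood above the rest with 19 Ighj1 joins, of which 10 had at most 7 aligned D bases.

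Calls to the other 2 genes were lower in Ighj1 by a smaller margin. Ighd3-1 calls used Ighj1 in 14.1% of sequences (12.7% to 15.7%) and Ighd3-3 calls in 14.4% (13.3% to 15.7%), near the 14.8% of DSP2 and 15.5% of DQ52. Together they differed from other D genes by -5.38 points (-6.33 to -4.43, adjusted p = 0.0368, exact permutation test). Out of frame they used Ighj1 in 8.28% and 10.6% of joins, against 13.5% for DSP2 and 10.5% for DQ52. Over all joins of the members the Ighj1 share was 7.54%, a difference of -12.1 points from other D genes (-12.6 to -11.7, passed). Among the 17 D genes with at least 500 sequences, Ighd3-2 was lowest, Ighd2-4 was next and Ighd2-2 after it, and Ighd1-1 was highest at 25.9%. Ighd3-2 was also lowest in each of the 6 libraries, although at 500 ng Ighd6-1 followed at 6.67%. That value rests on 2 of 30 sequences (1.85% to 21.3%).

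**Figure D2:**
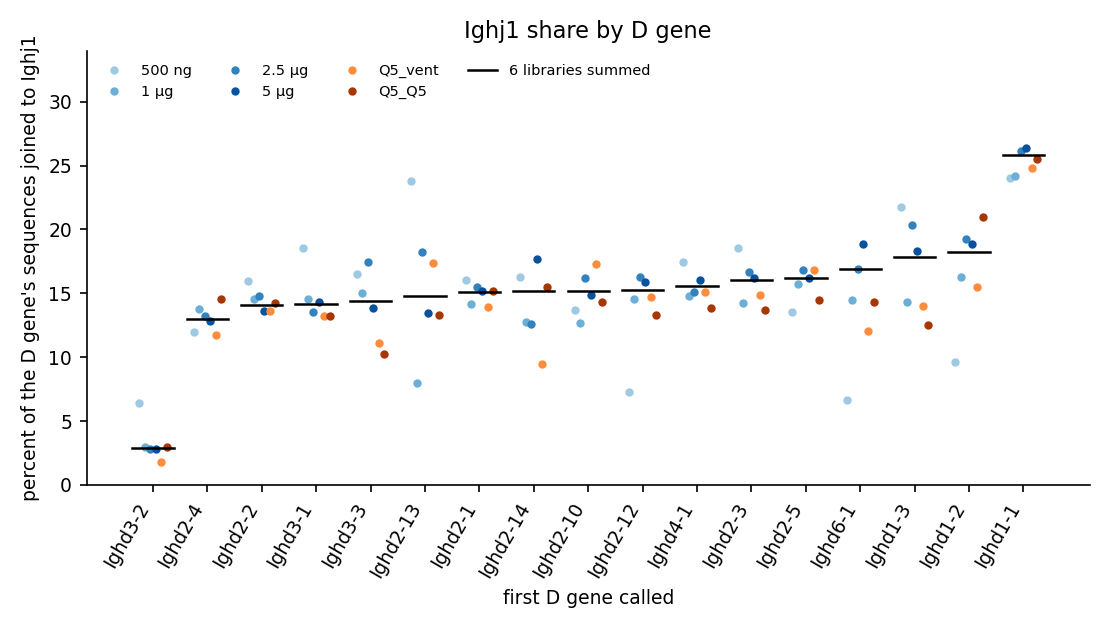
Percent of each D gene's sequences joined to Ighj1 (vertical axis) for the 17 D genes with at least 500 sequences, ordered from lowest to highest. Points are the 6 libraries and black lines the libraries summed; the line of Ighd3-2 sits at 2.89%, and the lines of the other genes all lie above it, up to 25.9%.

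The Ighj1 share of Ighd3-2 was highest among its short alignments. Ighj1 was used in 11.2% of 989 Ighd3-2 sequences with 5 to 7 aligned bases, 2.06% of 776 with 8 or 9, 2.02% of 2577 with 10 to 12, 1.67% of 1855 with 13 or 14, and 1.02% of 1659 with 15 or 16. Other D genes gave 18.1%, 17.1%, 17.5%, 21.0% and 24.9% in the same classes of length. The 3′ end of Ighd3-2 reads ctac, and in joins to Ighj1 its alignment often stopped short of these letters. It ended at base 12 in 34.1% of 208 Ighd3-2*02 joins to Ighj1 and in 10.7% to 15.3% of joins to the other J genes. The count was therefore repeated on the letters themselves, without the D call. The letters AGCTCAGG, bases 5 to 12 of Ighd3-2*02 on the coding strand, stood in 5944 CDR3s, of which 115 (1.93%, 1.61% to 2.32%) used Ighj1. All 16 letters stood in 1100 CDR3s, of which 27 (2.45%) used Ighj1.

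Ighj3 was the J gene most raised with Ighd3-2. Ighd3-2 used Ighj3 in 37.4% of sequences against 25.0% for other D genes (difference 12.4 points, 11.3 to 13.5, passed), with 32.8% at 500 ng as the lowest library and 38.6% at 2.5 µg as the highest. The other D genes reached at most 25.6% in any library. Ighj4 was also higher, at 29.3% against 25.9% (3.41 points, 2.39 to 4.44, passed), whereas Ighj2 was at 30.4% against 29.4% and did not pass (0.962 points, -0.0743 to 2.00, adjusted p = 0.451, exact sign-flip permutation test). Over all members the differences were 6.29 points for Ighj3, 3.90 for Ighj4 and 1.95 for Ighj2, and all of them passed, although Ighj2 turned to -0.738 over calls naming a single D gene. The Ighj3 difference over all members did not pass against DSP2 alone (0.767 points, -0.0744 to 1.61, exact permutation p = 0.25), since DSP2 itself used Ighj3 in 30.5% of sequences; Ighd3-2 alone remained 6.90 points above DSP2 (5.79 to 8.01, in 6 of 6 libraries). Ighd3-1 and Ighd3-3 calls lay below other D genes, at 21.2% and 23.1%.

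Out-of-frame joins, which make no protein, also had few Ighj1 and many Ighj3 partners with Ighd3-2. Of 1307 out-of-frame Ighd3-2 joins 2.68% used Ighj1 (1.93% to 3.70%) and 41.3% used Ighj3. Out-of-frame joins of other D genes used them in 16.8% and 29.6%. Productive Ighd3-2 joins used Ighj1 in 2.97% and Ighj3 in 36.4%.

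Ighd3-2 was trimmed more at its V side than at its J side. Over 7621 Ighd3-2*02 sequences a mean of 2.58 bases was lost from the 5′ end and 1.64 from the 3′ end. The 3′ end was whole in 45.2% of sequences (44.1% to 46.4%) and the 5′ end in 20.2% (19.3% to 21.1%), and both were whole in 9.32%. A frequent 5′ end was base 2, in 24.1% of sequences, and the most frequent trimmed 3′ end was base 13, in 18.3%. Letters that V or J could equally supply are counted as lost here, since the caller gives them to V or J.

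Fewer bases stood between V and D in DST4 joins. The mean was 3.56 bases for all members and 3.75 for Ighd3-2, against 4.37 for other D genes (differences -0.817, -0.870 to -0.763, and -0.620, -0.687 to -0.553; both passed). Between D and J the members had 3.57 bases against 3.27 (0.301, 0.248 to 0.354, passed), but Ighd3-2 alone had 3.21, below the other D genes (-0.0580, -0.116 to -0.000316, passed). Ighd3-1 and Ighd3-3 calls together lay 0.823 bases above the other D genes (0.728 to 0.918, exact permutation p = 0.03125). Over all D alignments of at least 10 bases the DST4 difference was -0.135. The positive difference on the J side was thus found with the Ighd3-1 and Ighd3-3 calls and not with Ighd3-2.

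V partners of DST4 were shifted towards the distal families, which lie far from the D genes. Ighv1 and Ighv8 together made up 66.3% of members and 67.3% of Ighd3-2 joins, against 61.9% for other D genes (4.39 points, 3.56 to 5.22, and 5.43, 4.37 to 6.49; both passed). The members ranged from 63.4% at 1 µg to 68.1% in Q5_vent, and the other D genes from 61.6% to 62.3%, without overlap. Within this sum Ighv1 was higher (61.6% against 56.3%) and Ighv8 lower (4.62% against 5.57%). Over calls naming a single D gene the distal difference was 3.83 points (2.81 to 4.85) and no longer passed (adjusted p = 0.0735, exact permutation test). Over productive joins alone it was 3.04 points and did not pass (exact permutation p = 0.0625), and over out-of-frame joins it was 0.682 points (-1.46 to 2.83, exact permutation p = 0.188). The D-proximal families Ighv2 and Ighv5 made up 12.5% against 14.2% (-1.70 points, -2.29 to -1.12, adjusted p = 0.0987 by exact permutation, lower in 5 of 6 libraries). Over out-of-frame joins this direction turned, to 2.93 points (1.02 to 4.84, exact permutation p = 0.0625).

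The 10 V genes most used with DST4 supplied 30.6% of members, and the same genes supplied 27.0% of joins with other D genes. Ighv1-26 (chr12:114788372-114788665) led with 698 members, 5.26% against 5.09%, a ratio of 1.03 (0.961 to 1.12). Ighv1-82 (chr12:115952538-115952831) made up 3.18% against 2.32% (ratio 1.37, 1.24 to 1.51), with a library range of 2.76% to 3.77%. Ighv1-50 also made up 3.18% of members, with a ratio of 1.27 (1.15 to 1.40).

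A V gene stood apart when its share with DST4 differed by at least 1.5-fold from that with other D genes and the 95% interval of the ratio excluded 1. Of 79 V genes with enough sequences 9 did so (11.4%), 7 lower (8.86%) and 2 higher (2.53%), and by the interval alone 35 did (44.3%). Simulated counts with no change gave 0.09 such genes on average. These counts were drawn without variation between libraries or clones, so they cover counting error only. Without the 5 µg library 3 genes stood apart, and without the 2.5 µg library 5, and the cause was not tested.

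The lower genes included both V genes known from phosphatidylcholine-binding B-1 cells. Ighv12-3 (chr12:114366526-114366819) made up 0.475% of members and 0.865% of other joins (ratio 0.550, 0.428 to 0.706), and Ighv11-2 (chr12:114048241-114048704) 0.256% and 0.442% (ratio 0.580, 0.412 to 0.817); both were lower in 6 of 6 libraries. The others were Ighv1-11, Ighv4-1, Ighv1-87, Ighv15-2 and Ighv2-6, with ratios of 0.568 to 0.644. In out-of-frame joins the 7 genes had ratios of 0.777 to 1.07 and all 7 intervals included 1, and the difference between the kinds of join was not tested.

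Higher with DST4 were Ighv9-2 (chr12:114109001-114109430; 1.18% against 0.762%, ratio 1.54, 1.31 to 1.82) and Ighv1-61 (chr12:115359140-115359433; 0.732% against 0.462%, ratio 1.58, 1.29 to 1.95). Ighv9-2 was higher in 6 of 6 libraries and Ighv1-61 in 5 of 6. With Ighd3-2 alone their ratios were 1.82 (higher in 4 of 6 libraries) and 1.87 (6 of 6). Over productive Ighd3-2 joins Ighv9-2 had a ratio of 1.64 but was higher in 3 of 6 libraries and lower in 3. Of 58 V genes compared for Ighd3-2, 10 stood apart (17.2%), 8 of them lower (13.8%) and 2 higher (3.45%), and by the interval alone 31 did (53.4%). Among productive Ighd3-2 joins 6 of 49 stood apart (12.2%), 4 lower (8.16%) and 2 higher (4.08%).

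Members were productive more often than joins of other D genes. The productive share was 81.7% of 13258 members against 72.2% (9.45 points, 8.76 to 10.1, passed), and it was 81.8% for Ighd3-1, 81.6% for Ighd3-2 and 81.9% for Ighd3-3. The members gave 82.6% in Q5_vent and 80.7% in Q5_Q5, and 81.3%, 81.1%, 80.6% and 82.3% in the input series in order of rising amount. The other D genes lay between 71.6% and 73.0%, so no library overlapped. The family stood near DQ52, at 83.1%, and above DFL16, at 73.8%, and DSP2, at 69.1%. Joins without any D call were also near it, at 80.6% of 12588 sequences, so a high share was not particular to the family. With 10 or more aligned bases, Ighd3-2 gave 81.2% and other D genes 69.8%. How far aligned length bears on the shares of the short Ighd3-1 and Ighd3-3 calls was not tested.

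**Figure D3:**
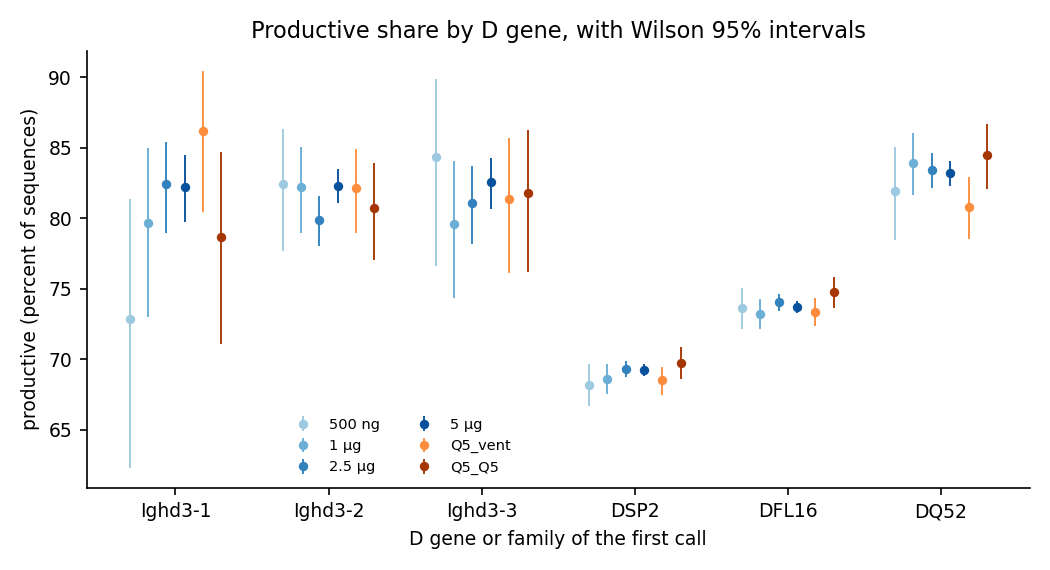
Productive sequences in percent of all sequences (vertical axis, not starting at 0) for the Ighd3 genes and the DSP2, DFL16 and DQ52 families. Each point is a library with its Wilson 95% interval; Ighd3-2 lies between 79.8% and 82.4%, above every DSP2 and DFL16 library.

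Both ways of being non-productive were rarer. Out-of-frame joins made up 16.5% of members against 22.9% (-6.45 points, -7.11 to -5.79, passed). Among joins in frame, 97.8% of members were productive against 93.7% (4.08 points, 3.78 to 4.37, passed). Ighd3-2 gave 16.6% out-of-frame and 97.8% productive among joins in frame. No frame of Ighd3-2 holds a stop codon within its letters, whereas Ighd3-3*01 has a stop in frame 2. In-frame joins that were not productive made up 1.74% of Ighd3-3 calls and 1.79% of Ighd3-2 calls. Among 2686 productive Ighd3-3 joins, 35.7% were in frame 2, and most Ighd3-3 calls align only 5 to 7 of its letters. Whether stops in the D letters bear on these shares was not tested.

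Ighd3-2 was read in all 3 frames. Counted from base 1 of its letters, frame 1 of Ighd3-2*02 spells RQLRL, frame 2 spells DSSGY and frame 3 spells TAQA. With 10 or more aligned bases, frame 2 held 47.8% of 4946 productive joins, frame 3 held 31.7% and frame 1 held 20.5%. Frame 2 gave 49.1% in Q5_vent and 42.6% in Q5_Q5, and 49.2%, 50.6%, 49.4% and 46.9% in the input series in order of rising amount, and was the most used frame in every library.

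Out-of-frame joins used the frames more evenly, at 31.0%, 33.5% and 35.5% of 1034 joins in the order of the frames. For the whole family, productive minus out-of-frame was -6.32 points in frame 1 (-8.44 to -4.21) and 8.70 in frame 2 (6.48 to 10.9), and both passed. Frame 3 was at -2.38 (-4.53 to -0.233) and did not pass (adjusted p = 0.0694, exact permutation test). For Ighd3-2 alone the values were -9.79, 11.2 and -1.46 points, and the calls were the same. For Ighd3-1 and Ighd3-3 calls together, frame 1 was at -1.32 (adjusted p = 0.688) and frame 2 at 4.99 points (adjusted p = 0.104), and neither passed the exact permutation test, while frame 3, at -3.68 points, did (adjusted p = 0.0368).

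**Figure D4:**
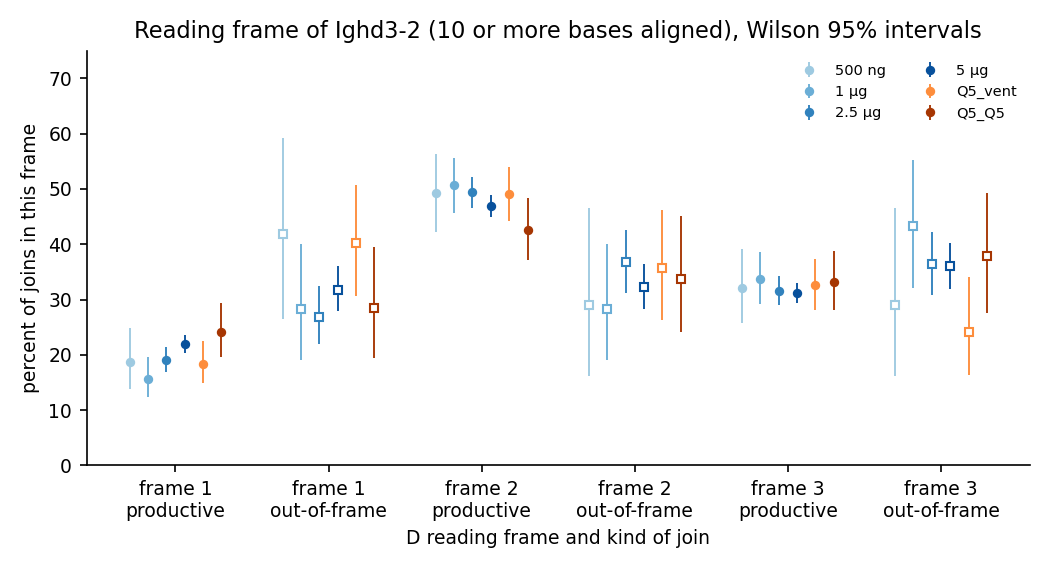
Percent of Ighd3-2 joins with 10 or more aligned bases (vertical axis) in each D reading frame, for productive (filled circles) and out-of-frame joins (open squares). Points are libraries with Wilson 95% intervals; frame 2 of productive joins lies at 42.6% to 50.6%, and the out-of-frame points, on fewer joins, range from 24.1% to 43.3%.

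The least used frame of Ighd3-2 was better filled than that of 3 common D genes. The least used frame of productive joins held 20.5% for Ighd3-2, 2.14% for Ighd1-1, 0.723% for Ighd2-3 and 0.00786% for Ighd2-4. In out-of-frame joins it held 31.0% for Ighd3-2 against 19.7%, 5.96% and 7.44%. In each of these 6 comparisons Ighd3-2 was higher in 6 of 6 libraries (adjusted p = 0.03125, exact sign-flip permutation test). Productive joins exclude stop codons by definition, so a stop in the D letters can empty a frame in advance. Stops in the letters of the 3 other genes were not examined. The productive comparisons therefore cannot be read as a preference for frames. Out of frame, the least used frame held 30.3% for the short D gene Ighd4-1 and 29.4% for the rarer Ighd1-2, which were not tested against Ighd3-2. In productive joins it held 9.72% for Ighd4-1 and 24.7% for Ighd1-2, the latter above the 20.5% of Ighd3-2.

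Clones that recurred in several libraries show how the frames appear in the CDR3. Capitals mark the bases aligned to Ighd3-2, and the letters before and after them come from V, J and N bases.
Ighv1-61 to Ighj2, frame 1, AREGRQLRLGDY: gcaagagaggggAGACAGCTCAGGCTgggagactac
Ighv3-5 to Ighj3, frame 2, ARDSSGYLFAY: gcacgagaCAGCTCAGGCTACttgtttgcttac
Ighv1-7 to Ighj2, frame 3, ARRTAQATFYFDY: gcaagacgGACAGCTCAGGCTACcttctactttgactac
Ighv12-3 to Ighj1, frame 2, AGDSSGYWYFDV: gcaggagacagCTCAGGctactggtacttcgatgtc
The Ighv3-5 and Ighv12-3 joins hold all 16 letters of Ighd3-2*02 in a row. In the Ighv12-3 join 6 are counted as D because the others were given to V and J, with 0 bases left between the segments. It is among the few Ighj1 joins and was seen in 3 libraries. The Ighv1-7 join was seen 7 times in 4 libraries, the Ighv3-5 join 6 times in 4, and the Ighv1-61 join 2 times in 2.

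Whole or trimmed forms of the 3 peptides made up most of what the frames contributed. In frame 1 the D part was most often QLRL (26.4% of 1358 productive joins) or QLR (22.7%), in frame 2 DSSGY (23.1% of 2986) or SSGY (16.3%), and in frame 3 TAQA (29.9% of 2064) or AQA (25.4%). The frames gave CDR3s of different charge, counted as lysine and arginine minus aspartate and glutamate. The mean was 1.41 in frame 1 (SD 1.08), -0.354 in frame 2 (SD 1.10) and 0.145 in frame 3 (SD 1.04). A net positive charge was carried by 83.1% of frame 1 CDR3s, 21.2% of frame 2 and 37.2% of frame 3.

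Productive CDR3s with a DST4 segment were shorter, more positive and poorer in tyrosine than those with other D genes. Part of these differences is set by the choice of members, since the D letters lie inside the CDR3. The tests of length, charge and residues are thus not independent of that choice. The mean length of DST4 CDR3s was 35.2 bases against 38.6 (-3.38, -3.49 to -3.27, passed). Ighd3-2 gave 37.0 (SD 5.64), Ighd3-1 gave 32.8 and Ighd3-3 gave 32.5, while DSP2 had 37.9, DFL16 40.3 and DQ52 33.9. Mean charge was 0.109 against -0.396 (0.506, 0.482 to 0.529, passed), and 0.181 for Ighd3-2 (library range 0.129 to 0.215). The other D genes ranged from -0.415 to -0.387, so no library overlapped.

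Tyrosine, a residue frequent in antibody binding sites, made up a mean of 14.9% to 15.2% of the CDR3 residues of members in all libraries, against 21.4% over all joins of other D genes (-6.45 points, -6.59 to -6.32, passed). DQ52 was lower still, at 13.8%. Mean hydropathy on the Kyte-Doolittle scale was -0.681 against -0.678, a difference that did not pass for the family (adjusted p = 0.438, exact permutation test). Ighd3-2 alone was at -0.643 (0.0356, 0.0234 to 0.0478, passed). The share of sequences with a V mismatch was 7.44% against 7.96% and did not pass (adjusted p = 0.0694, exact permutation test).

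Of the 20 residues compared between productive Ighd3-2 joins and other D genes, 6 were higher (30%) and 8 lower (40%) at an adjusted p of 0.0446 by the exact permutation test. Part of this composition is set by the choice of members, since the D letters lie inside the CDR3, so the test is not independent of that choice. All 6 higher residues occur in the frame peptides RQLRL, DSSGY and TAQA of Ighd3-2*02. The lower aspartate and tyrosine occur there too. Alanine was at 18.4% against 12.2%, glutamine a mean of 3.83 points above the 0.321% of other D genes, serine at 9.18% against 6.94%, arginine at 10.8% against 8.80%, leucine at 4.15% against 2.46% and threonine at 3.61% against 3.24%. Lower were tyrosine (14.7% against 21.7%), aspartate (8.20% against 10.8%), valine (1.64% against 4.21%), asparagine (0.449% against 2.01%), tryptophan (1.94% against 2.77%), isoleucine (0.545%, a mean difference of -0.687 points), phenylalanine (5.18% against 5.66%) and histidine (0.755% against 0.932%).

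**Figure D5:**
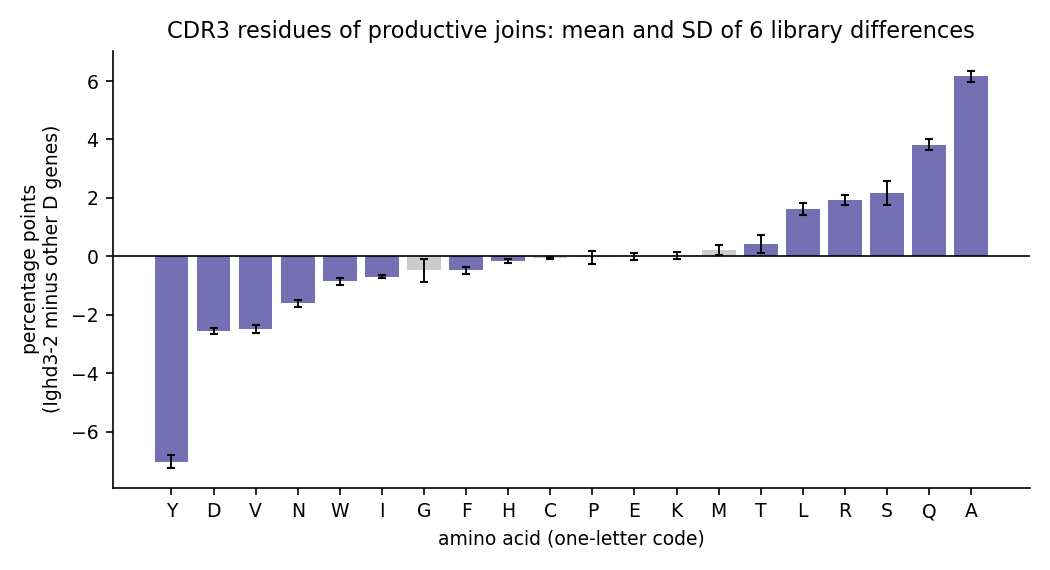
Difference in CDR3 residue share (vertical axis, percentage points) between productive joins of Ighd3-2 and of other D genes, by amino acid. Bars are the mean of 6 library differences with their SD, and coloured bars passed the test; tyrosine has the lowest bar and alanine the highest.

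The amino acid sequences of these CDR3s were diverse. The 10830 productive members held 10129 different CDR3s (93.5%), of which 336 occurred in 2 or more libraries. The most widespread was ARDSSGYFDY, found in 5 libraries with 6 V genes and 3 nucleotide versions. ARDSSGYYFDY occurred 10 times in 4 libraries with 8 V genes and 6 nucleotide versions. By contrast ARRTAQATFYFDY was a single clone of 1 V gene and 1 nucleotide version. A clone was counted as sequences that share V, J and all CDR3 bases. Of 13010 DST4 clones 111 were seen in 2 or more libraries (0.853%, 0.709% to 1.03%), an interval that includes the 0.760% of clones with other D genes.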

How the data were processed

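The deposited files hold 1 row per deduplicated sequence for each of the 6 libraries, with V, D and J calls, positions and lengths in bases, and flags for productive and in-frame joins, per the file headers. Per the file headers, V identity was deposited as a fraction; V mismatches were counted instead from the deposited V alignment strings. The submitters' processing notes name the mm10 build, Bowtie2 2.3.2 and Trim Galore 0.4.4. Column names point to IgBLAST as gene caller; its version and germline set: not given in the sources used here. The members and comparisons were chosen with earlier results of these data known.

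Sequences were grouped by the first gene of each call. D reading frames were counted against the conserved tryptophan codon of J, whose germline position was read from productive joins. Shares carry Wilson 95% intervals, and differences 95% normal-approximation intervals; both, and the upper limits a count of 0 allows (3 counts of the total), cover counting error only. V ratios used Katz intervals over genes with at least 50 DST4 sequences counted or expected. V genes named are the 10 most used with DST4, those standing apart by the largest ratios, Ighv11-2, Ighv12-3 and Ighv5-2. The V rule was tested on simulated counts for DST4 against other D genes, where 80.2% of genes changed 2-fold were found. Alternatives were other D and V call filters, comparators, clone counting and thresholds; those restricted to single Ighd3 genes or to searched letters were chosen after seeing the data. Coordinates are from the RefSeq annotation of GRCm38.p6. The software was Biopython 1.88, matplotlib 3.10.9, SciPy 1.17.1, NumPy 2.4.6 and pandas 2.3.3 under Python 3.11.15.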

Additional observations from a re-analysis of the deposited data

Results flagged for a closer look

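Of 34 sets of library values examined, 3 held a library far from the other 5, where chance alone flags about 1 set in 20. The mean number of bases between V and D in DST4 joins was 3.74 at 1 µg and at most 3.58 in the other libraries. The share of DST4 sequences with a V mismatch was 4.03% in Q5_Q5 and at least 7.57% in the others, and joins of other D genes were also lowest in that library. The Ighj1 share of Ighd3-2 joins was 6.42% at 500 ng, on 19 joins, and at most 2.95% in the others.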

How the results depend on the processing

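Of the 330 values recomputed for 24 results, 13 turned direction, 13 no longer passed the test, 5 newly passed it or had an interval that newly excluded 0, and 8 moved beyond the spread or, for counts, by over 1.5 times. Without the 5 µg library the Ighj4 difference was 2.83 points, and the values without each library in turn ran from 2.83 to 4.37. V genes standing apart ran from 3 to 9 in the same way, with the number of genes tested not given. The hydropathy difference ran from -0.00394 to 0.00368, turning without the 5 µg library, and was 0.00287 with libraries weighted equally. With 5 libraries the smallest exact permutation p is 0.0625, so these are values with no test. The share difference between 5 µg and 500 ng was -0.130 points over out-of-frame sequences and -0.309 for 5 µg minus 1 µg, and that of the polymerase pair was 1.15 (0.197 to 2.11) over out-of-frame sequences. With calls naming a single D gene, Ighj2 differed by -0.738, distal V genes by 3.83 (no longer passed), aligned length from DSP2 by -0.0853 and hydropathy by -0.0599. With at least 10 aligned bases, Ighj2 differed by 0.440, aligned length by -0.0543, bases between D and J by -0.135 and hydropathy by 0.0393. Productive sequences alone gave 3.04 for distal V genes. Out-of-frame sequences alone gave 1.53 for Ighj2, 1.71 for Ighj4, 0.682 for distal and 2.93 for proximal V genes, which turned direction. Against DSP2, Ighj3 differed by 0.767 and hydropathy by 0.132. For Ighd3-2 calls, Ighj2 differed by 0.962, aligned length by 0.701, bases between D and J by -0.0580 and hydropathy by 0.0356. For Ighd3-1 and Ighd3-3 calls, Ighj3 differed by -2.63, hydropathy by -0.0577, V mismatches by -1.08, and the frames by -1.32, 4.99 and -3.68 points in order, of which the third alone passed. V genes standing apart were 0 at 2-fold and 24 at a lower fold, both of 79 genes tested. With a minimum of 100 sequences they were 3, with 20 they were 19, and over out-of-frame sequences 1. The number of genes tested differs in these last settings and is not given, so their counts cannot be compared as shares. The out-of-frame Ighv5-2 difference was 6.30 points with at least 10 aligned bases and no longer passed. The cause of these shifts was not tested. No paired analysis was possible because the labels carry no replicate numbers that could pair libraries across groups; DST4 and other D joins were compared within each library instead. Library depth limits rare joins: a count of 0 at 500 ng allows a share of up to 0.0345% of sequences.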

Other observations

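Ighv5-2 (chr12:113578504-113578990), the V gene known as 81X and among the closest to the D genes, was a frequent partner of Ighd3-2 in out-of-frame joins. It was the V gene of 153 of 1307 such joins (11.7%, 10.1% to 13.6%), against 6.22% of out-of-frame joins with other D genes (5.48 points, 3.72 to 7.24, higher in 6 of 6 libraries, exact sign-flip permutation p = 0.03125, unadjusted). The lowest Ighd3-2 share was 6.52% at 1 µg, followed by 8.33% at 500 ng, and the other libraries had at least 11.1%, while other D genes ranged from 5.65% to 7.25%. With 10 or more aligned bases the difference was 6.30 points (4.29 to 8.32) but 5 of 6 libraries were higher (exact permutation p = 0.0625). Several other D genes had like shares, among them Ighd2-13 with 11.9% and Ighd2-2 with 11.1%, and Ighd1-1 had 3.63%. Over all Ighd3-2 joins, Ighv5-2 made up 2.16%. The pattern was chosen after its values were seen.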
